A study of Rattus norvegicus with 12 samples.

Results

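The genes described here mark osteoblasts, the cells that lay down bone matrix, and osteocytes, the cells that stay buried in it. Of the 9 genes chosen (Phex, Dmp1, Mepe, Bglap, Ibsp, Smpd3, Dlx5, Sost and Sp7), 8 had at least 1 probe set for which they were the only gene symbol in the array's annotation. These were 9 probe sets of 31099 on the array, 2 of them for Sost and 1 for each of the other 7 genes. No probe set matched Sp7, which encodes the osteoblast transcription factor osterix, and it is not analysed here. A log2 value above 4 in at least 3 of the 12 arrays was required for testing, and 7 probe sets of 7 genes passed. Those 7 genes lay above that level in every array of every group, the lowest single value being 6.89. Genes were chosen by name as signs of subchondral bone, the bone plate under the joint cartilage. No cut-off on measured values was used, but the choice was made with earlier results of these data known.

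Total RNA from knee articular cartilage of rats was hybridized to 12 single-colour Affymetrix arrays. The 4 groups of 3 arrays differ in the operation on the knee, one that brings on osteoarthritis (OA) and a sham operation, and in the time of sampling, 2 or 8 weeks afterwards. The labels refer to an earlier publication for the surgery, and strain, sex and age are not given in the sources used here. Nothing says whether arrays came from separate animals or from pools, so p-values measure only the spread between these samples, and 3 arrays a group limit the precision.

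Bone forms when osteoblasts secrete a collagen scaffold together with acidic and calcium-binding proteins, and mineral then grows in it. Some osteoblasts become osteocytes, which sense load and take part in phosphate handling through products such as Phex, Dmp1 and Mepe. Cartilage near the bone also mineralizes, and hypertrophic chondrocytes there are known to express part of the same set, among them Ibsp, Dlx5 and Sp7. The genes are therefore not exclusive to bone cells.

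The cartilage label was checked against 10 chondrocyte markers, of which 7 had a testable probe set. Their mean log2 level was high in all arrays, between 14.68 and 15.21, and Col2a1, the main cartilage collagen, had group means of up to 16.20. One array, OA 8 weeks replicate 1, stood apart. Its 3-prime minus 5-prime difference, a sign of RNA or labelling quality, was 0.89 for Gapdh, where the remaining 11 lay between 1.24 and 1.47. For actin it was 5.38, below a range of 7.72 to 8.66. Both gaps were thus smaller, not larger, than in the other arrays. This array also had the highest mean level of 15 skeletal muscle markers, 14.80. Its mean correlation with its group was 0.973 (0.973 to 0.988 in the others). Its share of probe sets above the filter level was 49.8% (48.2% to 49.8%). In these measures it did not stand apart. The bone gene results at 8 weeks are given below also without it, as are the calls in the other lists that changed.

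Promoter sequences were at hand for 5 of the 9 genes (RefSeq, build GRCr8, given 5' to 3' on the gene's strand). The 250 bases before the annotated start are shown for 3 matrix protein genes, picked by their measured values. Bglap and Mepe were lower in OA at 8 weeks on average, neither of them called. Ibsp, a chromosomal neighbour of Mepe, stayed close to its sham level. Whether the letters bear on these differences was not tested. Capitals mark the core that RUNX factors such as the osteoblast regulator RUNX2 are known to bind, TGTGGT or, on the other strand, ACCACA. The windows are chr2:176137319-176137568 for Bglap, chr14:5736859-5737108 for Mepe and chr14:5757243-5757492 for Ibsp, all on the minus strand.
Bglap: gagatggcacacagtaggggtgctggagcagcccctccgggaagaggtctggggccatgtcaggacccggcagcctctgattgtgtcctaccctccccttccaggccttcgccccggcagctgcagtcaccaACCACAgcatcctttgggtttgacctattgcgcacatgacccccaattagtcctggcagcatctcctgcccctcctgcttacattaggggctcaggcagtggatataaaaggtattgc
Mepe: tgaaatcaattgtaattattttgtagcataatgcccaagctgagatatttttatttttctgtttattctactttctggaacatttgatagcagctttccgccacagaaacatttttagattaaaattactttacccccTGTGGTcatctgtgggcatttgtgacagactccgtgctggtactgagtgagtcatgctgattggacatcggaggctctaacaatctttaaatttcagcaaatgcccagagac
Ibsp: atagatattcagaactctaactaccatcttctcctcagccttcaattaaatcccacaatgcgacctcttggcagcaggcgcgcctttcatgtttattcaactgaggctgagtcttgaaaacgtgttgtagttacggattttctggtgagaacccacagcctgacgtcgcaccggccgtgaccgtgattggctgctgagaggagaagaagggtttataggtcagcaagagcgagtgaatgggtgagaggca
The RUNX core was found once in Bglap, beginning 118 bases before the start on the opposite strand, and once in Mepe, beginning 112 bases before the start. Neither strand of the Ibsp, Sost or Dmp1 window held it. Of all 33469 promoter windows of this length in the table, 14.5% held it, so a match is a description of these letters and no evidence of binding. The GC box GGGCGG (30.5% of all windows), which SP factors are known to bind, was in none of the 5. The homeodomain core TAATTA (4.86% of all windows) was found in Mepe alone, beginning 238 bases before the start. The Dmp1 window lies 27070 bases inside the outer end of its gene model and may not be the promoter used in bone, so its letters are not shown.

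At 8 weeks, 3 of the 7 measured bone genes fell in OA cartilage against sham and 0 rose. Phex, the membrane peptidase whose loss causes phosphate wasting, fell by 2.53 ± 0.38 on the log2 scale. The osteocyte matrix protein gene Dmp1 fell by 2.22 ± 0.39, and the sphingomyelinase gene Smpd3, needed for bone and cartilage mineral, fell by 1.13 ± 0.23. The median difference of the 7 genes was -1.29, against 0.01 over all 15934 probe sets tested. Over all probe sets 311 were called lower, or 1.95%, and 241 higher, or 1.51% (3.46% in all). For 6 of the 7 genes the 3 OA arrays all read below the 3 sham arrays, an arrangement found for 12.8% of all probe sets. Errors are standard errors from limma, and a call means a Benjamini-Hochberg adjusted p under 0.05 over all 15934 probe sets.

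**Figure D1:**
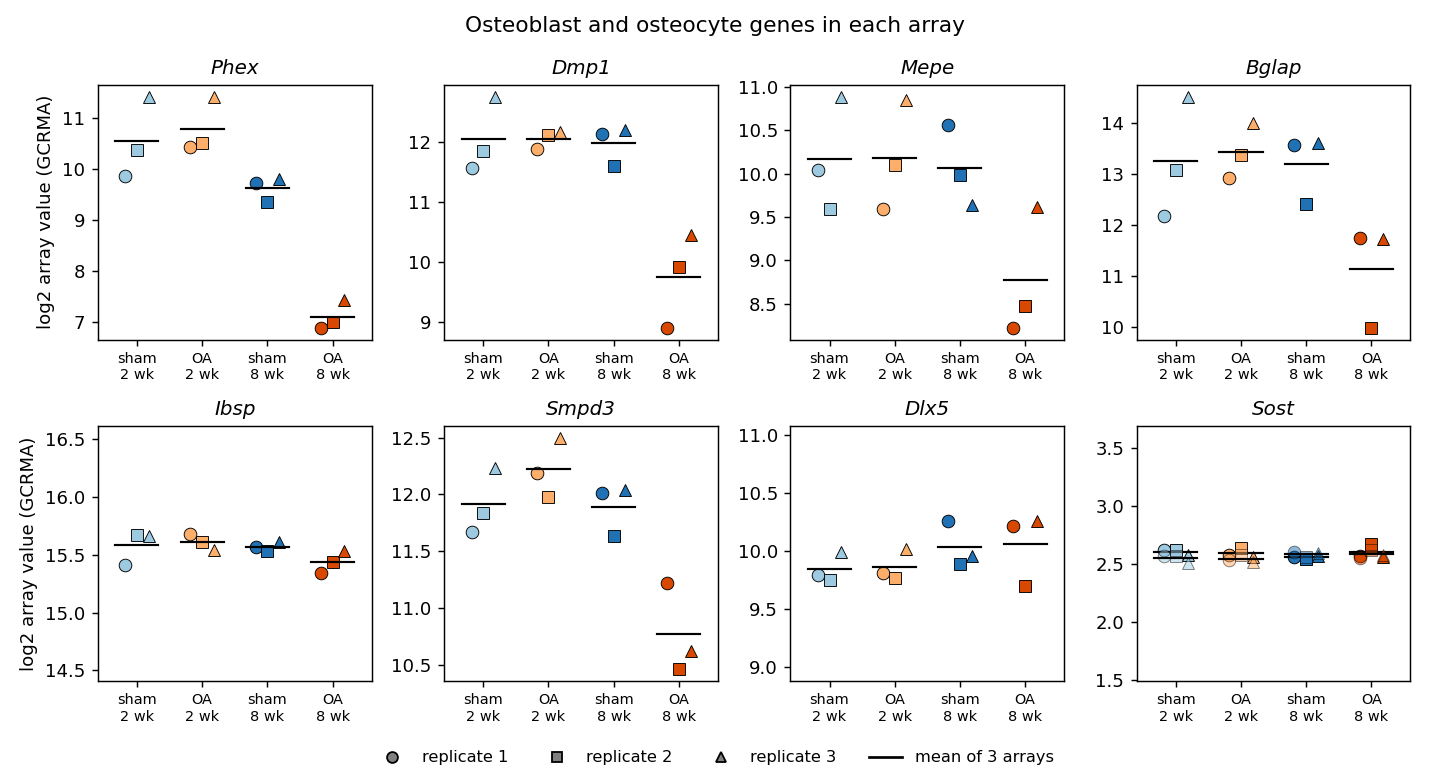
Log2 array value (vertical axis) of each measured bone gene in the 12 arrays, by group (horizontal axis), with the replicate number as the symbol and a line at the mean of 3 arrays. Both Sost probe sets are drawn, the second one paler. The OA 8-week arrays of Phex, Dmp1, Bglap and Smpd3 lie apart from the other groups, while Ibsp, Dlx5 and Sost lie level, Sost near 2.6. Vertical ranges differ between panels and span at least 2 log2 units.

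Among the genes of phosphate handling and mineral control, Phex read 6.89, 7.01 and 7.43 in OA at 8 weeks, and 9.73, 9.36 and 9.82 in sham. The groups were far apart, and every OA array read at least as low as 7.43. The fold was 5.76 lower in OA (adjusted p = 0.011, limma), with a 95% interval of the log2 difference from -3.39 to -1.67. At 2 weeks Phex read 10.44, 10.51 and 11.43 in OA and 9.88, 10.38 and 11.42 in sham. These groups overlapped, and the difference was 0.23 ± 0.38 (adjusted p = 1).

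Dmp1, an acidic phosphoprotein of the osteocyte's surroundings, read 8.90, 9.92 and 10.44 in OA at 8 weeks and 12.12, 11.60 and 12.20 in sham. All OA arrays lay below all sham arrays, and the OA arrays were spread more widely (SD 0.785 against 0.326). The gene was 4.66-fold lower (adjusted p = 0.0185, limma, interval -3.10 to -1.34). In the 2-week OA arrays Dmp1 stood at 11.88, 12.11 and 12.16. The sham arrays of that time, at 11.56, 11.84 and 12.75, overlapped with them and had the same mean, 12.05.

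Mepe, an osteocyte phosphoglycoprotein that limits mineral growth, read 8.22, 8.47 and 9.62 in OA at 8 weeks. Its sham arrays read 10.56, 9.98 and 9.64, so the highest OA and the lowest sham array nearly met. The difference of -1.29 ± 0.47 did not pass (adjusted p = 0.154, limma), with an interval from -2.34 to -0.25. Both 2-week means of Mepe were 10.18.

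Smpd3 read 11.22, 10.46 and 10.62 in OA at 8 weeks and 12.01, 11.63 and 12.04 in sham, with no overlap. It was 2.19-fold lower (adjusted p = 0.0321, limma, interval -1.64 to -0.62). At 2 weeks it read 12.19, 11.98 and 12.50 in OA and 11.67, 11.84 and 12.23 in sham. Those groups overlapped, and the difference was 0.31 ± 0.23.

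Among the secreted matrix proteins, Bglap encodes osteocalcin, the calcium-binding product of mature osteoblasts. It read 11.74, 9.98 and 11.72 in OA at 8 weeks and 13.57, 12.41 and 13.61 in sham. The groups did not overlap, but array 2 was the lowest in each of them, and the wide spread (SD 1.01 in OA) left the difference of -2.05 ± 0.65 short of a call (adjusted p = 0.117, limma). Over all tested probe sets, same-numbered OA and sham arrays tended to deviate together within each time, though no label states a pairing. Those of Mepe at 8 weeks did not. With the replicate number within each time as a block, the Bglap difference passed (adjusted p = 0.0147, limma). In that fit 4 of the 7 genes were called, while calls over all probe sets went from 552 to 1037. At 2 weeks Bglap ranged from 12.92 to 14.00 in OA and from 12.19 to 14.53 in sham, its sham SD of 1.18 being the largest of any member in any group.

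Ibsp, bone sialoprotein, read 15.34, 15.44 and 15.53 in OA at 8 weeks and 15.57, 15.53 and 15.61 in sham. The OA values lay just under the sham values, by -0.13 ± 0.09 (adjusted p = 0.446, limma, interval -0.34 to 0.07). In every array Ibsp exceeded at least 99.87% of the other probe sets. Array values near the top can compress differences, so its interval holds for this scale only. Ibsp, Mepe and Dmp1 belong to a family of acidic matrix proteins and lie side by side in the rat genome, in the order Spp1, Mepe, Ibsp, Dmp1 and Dspp with no other coding gene between them. Spp1, osteopontin, differed by 0.54 ± 0.35 (adjusted p = 0.401), and Dspp, known mainly from dentin, did not pass the filter on low values. Of the 4 neighbours tested, 1 was thus called at 8 weeks.

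Dlx5, a homeodomain transcription factor of osteoblasts and chondrocytes, showed overlapping groups at both times. It read 10.22, 9.70 and 10.26 in OA at 8 weeks and 10.26, 9.89 and 9.96 in sham, a difference of 0.02 ± 0.16 (interval -0.34 to 0.38) whose sign is not settled, since it turned when any of 4 single arrays was left out. Sost encodes sclerostin, the WNT inhibitor that mature osteocytes secrete. Its probe sets read between 2.51 and 2.67 in all 12 arrays, above only 27.96% to 30.81% of the other probe sets. At that level the array gives no measure of the gene, and its values say nothing of whether sclerostin RNA was present.

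**Figure D2:**
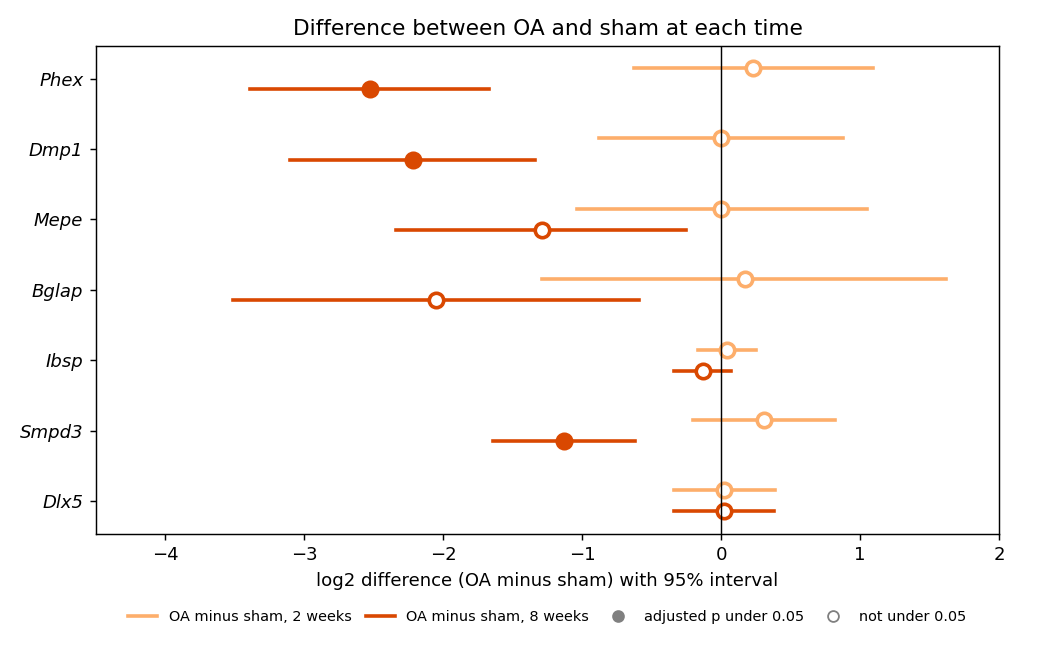
Log2 difference OA minus sham (horizontal axis) of the 7 tested genes at 2 weeks (pale) and 8 weeks (dark), with 95% intervals from limma and filled points for an adjusted p under 0.05. All 2-week intervals hold 0, and at 8 weeks Phex, Dmp1 and Smpd3 are filled at -2.53, -2.22 and -1.13.

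The 8-week calls rested on few arrays. Without the array that stood apart, OA 8 weeks replicate 1, all 3 stayed called (Phex -2.42, Dmp1 -1.79, Smpd3 -1.36). Bglap was then at -2.35, Mepe at -1.02, Ibsp at -0.09 and Dlx5 at -0.06, none of them called. Without sham 8 weeks replicate 3 none was called (adjusted p = 0.0545 for Phex, 0.0808 for Dmp1 and 0.124 for Smpd3). When the array numbered 2 was left out of either 8-week group, and when the fit held only the 8-week arrays, Phex alone was called. Smpd3 alone lost its call without OA 2 weeks replicate 1 (0.0515) or OA 8 weeks replicate 3 (0.0672), and with no filter on low values (0.0618).

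At 2 weeks none of the 7 genes was called, and none reached an unadjusted p under 0.05. In that comparison 0 of 15934 probe sets were called, or 0%, by limma, and 269 had an unadjusted p under 0.05. For all 7 the OA and sham arrays overlapped, whereas 3.46% of all probe sets did not overlap with OA lower and 1.91% with OA higher. The median difference was 0.04 for the 7 genes and -0.01 for all probe sets. Averaged over both times, 0 of the 7 were called (58 of all probe sets, or 0.364%), and 3 had an unadjusted p under 0.05, as did 12.4% of all probe sets. With the replicate block within each time, Phex passed in this average (0.0238).

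The difference between the 8-week and the 2-week OA effect was tested as an interaction. All 7 estimates were below 0, although that of Dlx5 was -0.00, with a median of -1.44 against 0.01 over all probe sets. None passed (0.138% of all probe sets did, 0.0753% lower and 0.0628% higher), while 4 had an unadjusted p under 0.05, as did 11% of all probe sets. The interaction was -2.76 ± 0.54 for Phex (adjusted p = 0.106, limma), -1.44 ± 0.33 for Smpd3 (0.147), -2.22 ± 0.56 for Dmp1 (0.197) and -2.21 ± 0.93 for Bglap (0.423). With the replicate block within each time, Phex passed (0.0172) and the other 6 did not.

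From 2 to 8 weeks within OA, 5 of the 7 bone genes were called lower (12.4% of all probe sets were) and 0 higher (21.7%, or 34.1% in either direction). The arrays of the times did not overlap for Phex, Dmp1, Smpd3, Bglap and Ibsp (17.5% of all probe sets in that direction), and those of Mepe did. Phex fell by 3.68 ± 0.38, from a mean of 10.79 to 7.11, or 12.8-fold. Dmp1 fell by 2.30 ± 0.39, Bglap by 2.29 ± 0.65, Smpd3 by 1.46 ± 0.23 and Mepe by 1.41 ± 0.47 (limma adjusted p from 4.05e-05 for Phex to 0.0411 for Mepe). Ibsp differed by -0.18 ± 0.09 and Dlx5 by 0.19 ± 0.16, neither called. With the array medians made equal, Ibsp differed by -0.36 and was called (adjusted p = 0.0332), which made 6 of 7. That scaling moved the median of all probe sets in this comparison from 0.09 to -0.09 and the calls over all probe sets from 1969 lower and 3461 higher to 2897 lower and 2203 higher. The Mepe call ended in 11 of 23 alternatives, among them without OA 8 weeks replicate 1 (0.13). Both Bglap and Mepe lost their calls without OA 2 weeks replicate 2, OA 2 weeks replicate 3 or OA 8 weeks replicate 2.

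Within sham, 0 of the 7 were called between the times, against 6.24% of all probe sets lower and 12.5% higher (995 and 1984, or 1410 and 1382 with equal medians, which moved the median of all probe sets from 0.08 to -0.09). Phex differed by -0.92 ± 0.38 (adjusted p = 0.15, limma), with every 8-week array (9.36 to 9.82) below every 2-week array (9.88 to 11.42), as for 11.3% of all probe sets (23.9% the other way). The other 6 differed by between -0.11 (Mepe) and 0.19 (Dlx5). Of the 4 groups, OA at 8 weeks thus had the lowest mean for Phex, Dmp1, Mepe, Bglap, Smpd3 and Ibsp. The 3 other group means of Dmp1, from 11.97 to 12.05, and of Mepe, from 10.06 to 10.18, lay closer together than the spread of their arrays. The difference between the time effects in OA and in sham is the same interaction as above, which none of the 7 passed.

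Within groups, most of the bone genes often had their highest value in the same array, though not all moved together. At 2 weeks the array numbered 3 was the highest of its group for 6 of the 7 genes in OA and for 6 of 7 in sham. At 8 weeks the array numbered 3 was the highest for 5 of 7 in OA and 5 of 7 in sham, and sham 8 weeks replicate 2 was the lowest of its group for 6 of 7. The genes were split in OA 8 weeks replicate 1, the lowest of its group for 4 and the highest for 2. There Dmp1 deviated from its group mean by -0.86 and Bglap by 0.60. The share of all probe sets with their highest value in the array numbered 3 was not counted. In sham at 2 weeks, array 3 exceeded its group mean by 1.26 for Bglap, 0.87 for Phex, 0.72 for Mepe and 0.70 for Dmp1. These 4 deviations within one group were larger than any of the 7 OA-minus-sham differences at 2 weeks, the largest of which was 0.31.

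Likeness was measured by Pearson's r over 12 arrays, centred within each time, with the mean of the 7 standardized genes. The r was 0.956 for Bglap, 0.948 for Phex, 0.895 for Dmp1, 0.866 for Smpd3 and 0.864 for Mepe, each of which is itself part of that mean, and lower for Ibsp (0.667) and Dlx5 (0.451). Among 9240 other genes the most alike were Rhod (0.951), Spon2 (0.950), Igf2 (0.948), Ubr7 (0.947), Fam180a (0.946), Hes1 (0.941), Col11a2 (0.941) and Stimate (0.936). These values describe arrays that share their group and their RNA sample, and carry no test. Centring within time left the 8-week gap between OA and sham in the measure, so genes picked by it tend to be lower in OA. Their 8-week differences, given next, follow from that choice and add no support. Spon2, a secreted matrix protein gene, was lower in OA at 8 weeks by -2.49 ± 0.39 (adjusted p = 0.0126, limma) and Igf2, an insulin-like growth factor gene, by -2.79 ± 0.57 (0.0315). Fam180a was lower by -1.30 ± 0.28 (0.037). The other 5 were not called, with Col11a2, a cartilage collagen chain, at -0.61 ± 0.20 and the Notch target Hes1 at -0.57 ± 0.22. When the arrays were centred on their group means in place of the time means, 2 of the 8 most alike, Hes1 and Spon2, were the same.

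Other genes of bone formation were taken from 3 lists. Of 9 bone transcription factors 4 could be tested and 0 were called at 8 weeks in either direction. The mineralization factor Atf4 differed by -0.35 ± 0.10, Zfp521 by -0.31 ± 0.11, Dlx3 by -0.40 ± 0.21 and the repressor Twist1 by -0.31 ± 0.25, with a list median of -0.33. Runx2 had no matching probe set.

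Of 19 genes of bone matrix and mineral enzymes 16 were tested and 0 were called at 8 weeks, 12 of them with a difference below 0 (median -0.24; 48.9% of all probe sets were below 0). Closest to a call were the alkaline phosphatase gene Alpl, whose product frees phosphate for mineral (-1.08 ± 0.30, adjusted p = 0.0804, limma), and the fibrillar collagen gene Col24a1 (-1.04 ± 0.29, 0.0804). Alpl read 8.82, 8.95 and 9.79 in OA at 8 weeks and 10.16, 10.20 and 10.46 in sham, without overlap. The main bone collagen chain gene Col1a1 differed by -1.05 ± 0.44, with 12.41, 14.40 and 14.28 in OA and 14.41, 15.06 and 14.78 in sham. OA array 1, the one that stood apart, was the low value, and the other OA arrays lay just under the lowest sham array. Without that array the Col1a1 difference was -0.41, and 1 gene of the list, the keratan sulfate proteoglycan gene Omd, was called (-0.74, adjusted p = 0.0329). From 2 to 8 weeks within OA, Alpl (-1.27), Col24a1 (-1.44), Ogn (-1.16) and Slc20a2 (-0.52) were called lower and 0 higher. Of all probe sets 12.4% were called lower and 21.7% higher in that comparison. Over the same time in sham Slc20a2 was called too (-0.51), while Alpl differed by -0.10, Col24a1 by -0.23 and Ogn by -0.50. The interaction was not called for any of the 4.

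Of 29 genes of osteocyte and bone signalling 21 were tested, and 1 was called at 8 weeks, the parathyroid hormone receptor gene Pth1r (-0.85 ± 0.18, adjusted p = 0.0388, limma). It read 11.01, 11.07 and 11.28 in OA and 12.22, 11.76 and 11.93 in sham, without overlap, but was not called without OA 8 weeks replicate 1 (-0.79, adjusted p = 0.095). Fam20c, the kinase that phosphorylates secreted proteins such as Dmp1, differed by -0.79 ± 0.19 (0.0533). Next in adjusted p came the adhesion molecule gene Cadm1 (-2.11 ± 0.62, 0.0954) and the osteocyte membrane glycoprotein gene Pdpn (-1.29 ± 0.38, 0.0965). The lowest and highest differences of the list, neither called, were those of the channel gene Panx3 (-3.53 ± 1.24) and of Reln (2.02 ± 1.14). The list median was -0.61, with 15 of 21 below 0. From 2 to 8 weeks within OA, 5 were called lower, namely Fam20c (-1.06), Pth1r (-0.90), the receptor gene Lrp4 (-1.69), Cadm1 (-3.87) and Panx3 (-5.04), and 2 higher, Irx5 (0.97) and Lgr4 (1.21). Calls in either direction were made for 34.1% of all probe sets there, near the share in this list. By direction the shares were not alike. Of all probe sets 12.4% were called lower and 21.7% higher, against 5 and 2 of 21 here. Both sizes for Panx3 rest on an 8-week OA mean of 3.35, under the level set by the filter. Over the same time in sham Irx5 (1.56) and Cadm1 (-2.03) were called in the same directions. In sham Lgr4 differed by 0.93, Panx3 by -0.84, Lrp4 by -0.42, Pth1r by 0.13 and Fam20c by -0.08, none called, and none of the 7 interactions was called. The osteocyte hormone gene Fgf23, the osteoclast-inducing Tnfsf11 and the WNT ligand gene Wnt1 did not pass the filter on low values.

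**Figure D3:**
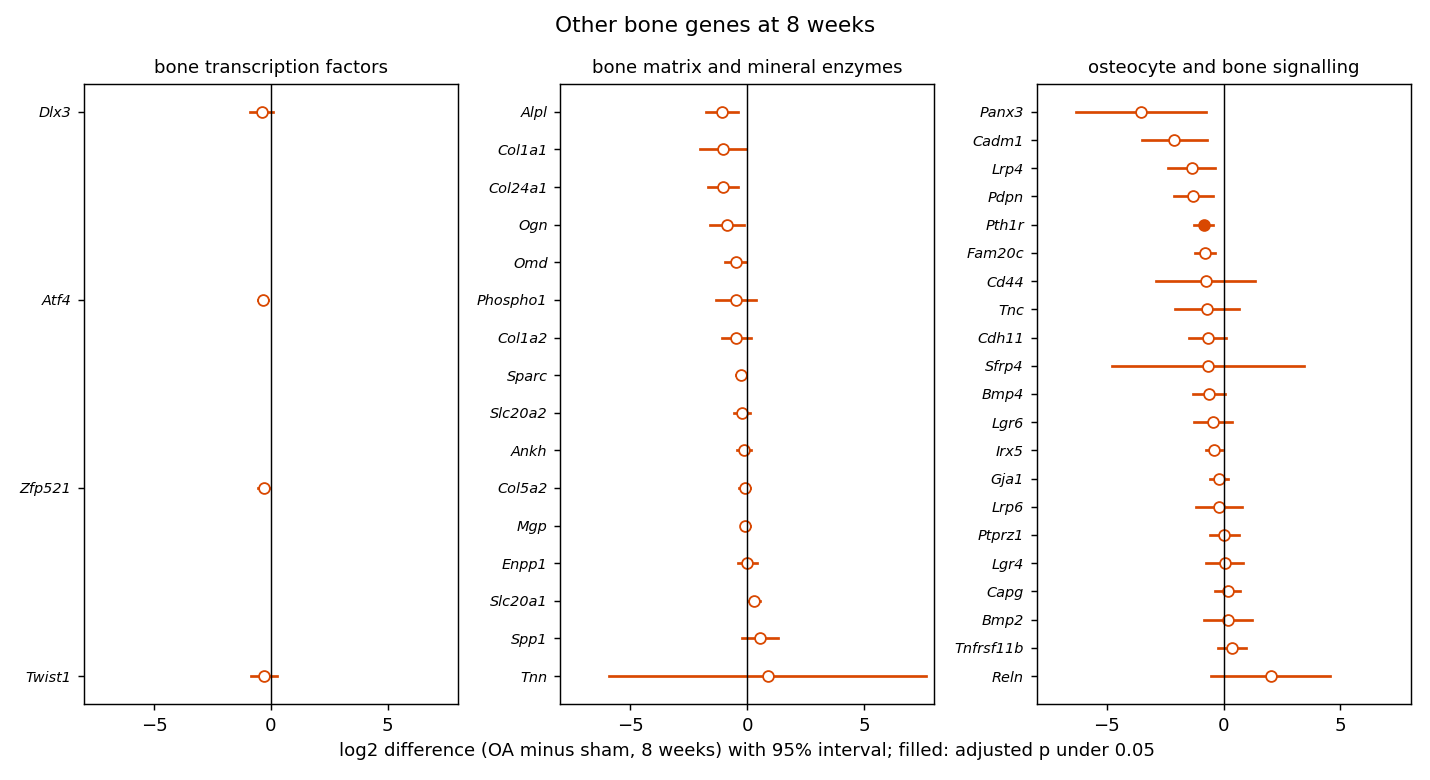
Log2 difference OA minus sham at 8 weeks (horizontal axis) with 95% intervals for the tested genes of 3 bone lists. One point is filled for an adjusted p under 0.05, Pth1r at -0.85, and most of the other points lie to the left of 0, as 15 of 21 do in the signalling list.

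Markers of other cells were read in the same comparison, and several osteoclast and macrophage markers were called lower in OA at 8 weeks. In bulk RNA fewer cells of a type and less RNA per cell cannot be told apart, here or in the results above. Of 14 osteoclast markers 8 were tested, and 5 were called lower in OA at 8 weeks, as were 1.95% of all probe sets. Those with the smallest unadjusted p were Mmp9 (-3.62 ± 0.45), Ctsk (-1.31 ± 0.16) and Itgb3 (-3.46 ± 0.48). Of the 8 differences 6 were below 0, and the highest was 0.18. Without OA 8 weeks replicate 1, 4 were called lower. The mean level of the 8 markers ran from 9.42 to 10.38 in OA and from 11.40 to 11.67 in sham. The osteoclast receptor gene Calcr did not pass the filter. The mean level of the 7 bone genes ran from 10.14 to 10.80 in OA and from 11.49 to 11.97 in sham at the same time. Neither range overlapped, and at 2 weeks both did.

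Of 16 macrophage markers 15 were tested, all below 0, with 4 called lower. The largest of these differences, for Cd68, rests on an OA mean of 2.54, at the low end of the scale where the array gives no measure, against 9.01 in sham. Their level was 6.57 to 6.73 in OA and 7.52 to 10.27 in sham. Of 8 erythroid markers 3 were tested and 0 called (6.42 to 7.16 in OA, 7.47 to 8.44 in sham), and of 10 endothelial markers 5 were tested and 0 called (4.46 to 5.49 and 5.56 to 7.15). Without OA 8 weeks replicate 1 the endothelial gene Tek was called lower. Of 6 adipocyte markers 2 were tested. Cfd was called lower, with an OA mean of 1.76 at the low end of the scale against 6.29 in sham, and Fabp4 differed the other way by 2.87 ± 0.84 (adjusted p = 0.0954, limma). Of 19 skeletal muscle markers 15 were tested and 0 called, with a median difference of 4.93 and levels of 10.16 to 14.80 in OA and 5.82 to 10.88 in sham. Sham 8 weeks replicate 1 had the highest muscle level of its group (10.88) and the lowest macrophage level (7.52), and the highest level of the 7 bone genes (11.97). In OA at 8 weeks it was the array with the lowest muscle level, replicate 3 (10.16), that had the highest bone gene level (10.80). How these levels bear on each other within a group was not tested. With the muscle level as a covariate none of the 3 bone calls held (Phex -2.31, adjusted p = 0.144; Smpd3 -1.43, 0.112; Dmp1 -1.82, 0.232). The muscle level itself was higher on average in OA than in sham at that time. The part that macrophage, erythroid and endothelial RNA have in the bone gene result was not tested.

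Among cartilage cells, 7 of 10 chondrocyte markers were tested and 2 were called lower at 8 weeks, Col9a1 (-0.48 ± 0.10) and Col9a2 (-1.04 ± 0.20), with a list median of -0.08. Without OA 8 weeks replicate 1 neither was called (adjusted p = 0.0605 for Col9a1 and 0.0606 for Col9a2). The mean level of the chondrocyte list at 8 weeks ran from 14.68 to 15.06 in OA and from 15.07 to 15.12 in sham. These ranges nearly met but did not overlap. Of 12 markers of hypertrophic chondrocytes 9 were tested, with 2 called lower, Mmp13 (-2.51 ± 0.46) and Pth1r, and 1 higher, the angiogenic factor gene Vegfa (0.57 ± 0.12). The hypertrophic collagen gene Col10a1 differed by -0.07 ± 0.12. The mean level of this list ran from 11.50 to 12.20 in OA and from 12.43 to 12.82 in sham, without overlap. The hypertrophic list median was -0.07, with differences from -3.53 to 0.57, against a median of -1.29 for the 7 bone genes. Alpl, Spp1, Panx3 and Pth1r of this list also stand in the bone lists above. The difference between the hypertrophic list and the 7 bone genes was not tested.

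**Figure D4:**
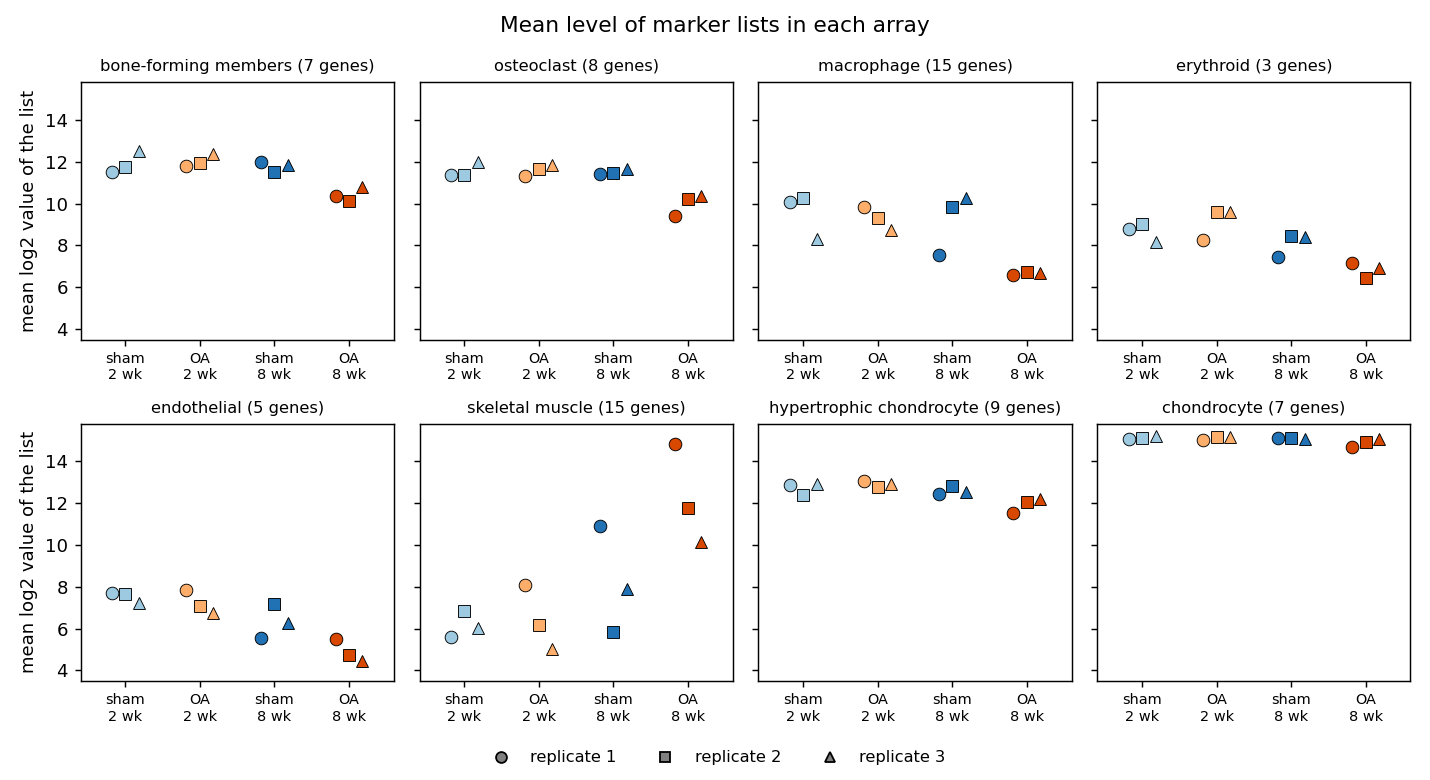
Mean log2 value (vertical axis) of 8 marker lists in each of the 12 arrays, by group, with the replicate number as the symbol. The bone-forming, osteoclast, macrophage, erythroid, endothelial and hypertrophic chondrocyte lists are lower in all 3 OA 8-week arrays than in every array of the other groups. The muscle list is highest at 14.80 in OA 8 weeks replicate 1. The chondrocyte list lies between 14.68 and 15.21, with its OA 8-week arrays (14.68 to 15.06) just under its sham 8-week arrays (15.07 to 15.12). Levels of different lists come from different probe sets and are not to be set against each other.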

How the data were processed

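The deposited values are on a log2 scale, 1 per array for each of 31099 probe sets, and the authors made them with GCRMA (background correction, normalization between arrays and summary per probe set), per the submitters' processing notes; its version is not given in the sources used here. No further normalization was applied. Control probe sets (57) were left out, and 15934 others passed the filter. Genes were named by the array's annotation, and a gene in a list is given by its kept probe set with the highest mean.

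One mean per group was fitted with limma 3.58.1 in R 4.3.3 over all 12 arrays (8 residual and 1.94 prior degrees of freedom), for 6 comparisons. The members, lists and tests were chosen with earlier results of these data known. Named genes were all members and the listed bone genes, up to 3 genes of each other list by smallest unadjusted p at 8 weeks, and the 8 most alike genes. Col2a1, Calcr and Col10a1 were added by role after their values were seen, and so were Tek and Omd and the lists without OA 8 weeks replicate 1. No label states a pairing, and the main fit did not pair arrays. A block of same-numbered OA and sham arrays within a time was an alternative drawn from these data. It was used because every such pair's deviations correlated (r = 0.333, 0.36 and 0.527 at 2 weeks, 0.239, 0.237 and 0.119 at 8 weeks). Differently numbered pairs ran from -0.381 to 0.142, the highest being OA 3 with sham 2 at 8 weeks, above the same-numbered 0.119. Same-numbered arrays of different times were not taken as paired (r from -0.497 to 0.237). The alternatives were other filters, normalizations, variance models and array weights, blocks, a muscle covariate, only the arrays compared and arrays left out. The fit was also run on simulated data with independent noise in each array. Those data lack the correlations between arrays given above, so that run cannot show how the fit handles them. Figures used Python 3.11.15 and matplotlib 3.10.9.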

Additional observations from a re-analysis of the deposited data

How the results depend on the processing

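Over 24 alternatives the count of bone genes called at 8 weeks (3 of 7) fell to 0 with the muscle covariate, to 0 without the 4 arrays numbered 1 and to 1 with only the arrays compared, and ranged from 0 to 3 with single arrays left out. The block within each time gave 4. All differences of Phex (-2.69 to -2.31), Dmp1 (-2.56 to -1.72), Smpd3 (-1.43 to -0.97), Bglap (-2.44 to -1.46), Mepe (-1.72 to -0.77) and Ibsp (-0.18 to -0.07) kept their sign at 8 weeks. Calls over all probe sets ran from 27 (only the arrays compared) and 36 (muscle covariate) to 1567 (array weights), against 552. For the interaction the count of 0 became 2 with array weights (Phex and Smpd3), 1 with the replicate block and 1 with the replicate block within each time. For the average it became 1 with either replicate block, and within sham 1 with the replicate block over both times (Phex, 0.0279), whose numbers do not pair across times. Within OA the count of 5 ran from 3 to 5 with single arrays left out and rose to 6 with equal medians, where Ibsp was called (-0.36). The cause of these changes was not tested, beyond the fewer arrays or the added terms that the alternatives hold.

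Values near 0 that passed in no setting turned sign. At 2 weeks this was Dmp1 (0.02 with quantile normalization, 0.20 with array weights, 0.03 with the muscle covariate), Mepe (-0.00 with equal medians) and, without the arrays numbered 1, Ibsp (-0.08) and Bglap (-0.12). The 8-week difference of Dlx5 was -0.09 with the muscle covariate, and its interaction 0.04 with array weights and 0.03 without the arrays numbered 1. Within sham, array weights gave 0.05 for Ibsp, 0.09 for Smpd3, 0.38 for Bglap and 0.16 for Dmp1, and the muscle covariate 0.12 for Smpd3 and 0.08 for Bglap. With single arrays left out, the 2-week ranges were -0.25 to 0.35 for Dmp1, -0.33 to 0.36 for Mepe, -0.37 to 0.79 for Bglap, -0.11 to 0.67 for Phex, -0.05 to 0.08 for Ibsp and -0.05 to 0.10 for Dlx5. For Dlx5 they were -0.08 to 0.20 at 8 weeks and -0.10 to 0.18 in the interaction. Within sham they were -0.09 to 0.04 for Ibsp, -0.14 to 0.14 for Smpd3, -0.61 to 0.56 for Bglap, -0.40 to 0.25 for Mepe and -0.32 to 0.27 for Dmp1. With the most variable probe set per gene, 1 gene of the bone matrix list was called lower at 8 weeks in place of 0.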
